A study of Mus musculus with 8 samples.

Results

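Genes of the glial scar and injury response were read in the organ of Corti, the hearing epithelium of the inner ear, from mice with Dicer1 deleted in hair cells and from littermate controls. The genes were picked by symbol, with earlier results of these data known: Serpina3n, Gfap, Vim, Nes, Timp1, Cd44, Stat3 and Socs3. These 8 genes, of 18193 on the arrays, were represented by 22 of 45101 probe sets, where a probe set is a group of short oligonucleotides on the array that together give 1 signal. Each gene was read from its probe set of highest mean log2 signal, and all 8 were bright enough to be tested, among 13221 genes in all. Of the other 14 probe sets, 11 were above that limit on average, and their differences are given beside those of the genes.

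All mice were at postnatal day 16 and carried the transgene Atoh1-Cre (Tg(Atoh1-cre)1Bfri), which drives recombination mainly in hair cells. Knockout mice had the genotype Dicer1(flox/flox), with both copies of the Dicer1tm1Bdh allele floxed, and controls were Dicer1(flox/wt). Controls therefore also carried Cre and 1 floxed allele, and no group without Cre is used here. Both cochleae of each mouse gave 1 apical and 1 basal sample, 1 array per sample, so that control apex, control base, knockout apex and knockout base held 2 samples each, from 4 presumed mice. Expression was measured on Affymetrix arrays as an intensity per probe set and is given below on the log2 scale, where a difference of 1 is a doubling of signal.

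Injury to nervous tissue brings glial cells into a reactive state, in which they build up intermediate filaments, secrete protease inhibitors and remodel the matrix around them. The cytokines of the interleukin-6 family drive much of this through STAT3, and SOCS3 shuts the pathway off again. In the cochlea the nearest counterpart of glia inside the sensory epithelium are the supporting cells, which close the gap when a hair cell dies and form a scar in its place. True glia, Schwann and satellite cells, accompany the neurons, and a few of these genes are also made by fibroblasts, vessels and bone.

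The samples were checked first. Replicates of a group correlated at r = 0.9615 to 0.9779 across genes in 3 groups and at 0.9279 in control base. Of those 2 samples, replicate 1 stood apart in its summed stria vascularis markers (21169, against 51248 to 57256 in the other basal samples) and replicate 2 in its spiral ganglion neuron markers (26198, against 41398 to 74629 in the other 7 samples). For base against apex, the number of the 8 genes and of all genes past the test is given with and without each. Counts of signs, of overlap and of list markers use both. Hair cell and supporting cell transcripts were measured in all samples. Of 14 markers of each type on the lists used, 11 and 14 had a probe set for that gene alone. Of those, 10 and 13 were bright enough to be tested. Prestin (Slc26a5), the motor protein of outer hair cells, and the supporting cell gene Hes5 lay under the brightness limit of 5.27 (log2). The female transcript Xist reached 12.39 or more in both samples of control mouse 1 and stayed at 8.23 or less in the rest, so that 1 of the 2 controls was a female and the other mice were males. The dissected tissue also held cells beyond the sensory epithelium. Pigment cell transcript Dct, of the stria vascularis, ran from 5.96 to 13.91. Dicer1 itself ran from 9.04 to 9.57 in controls and from 9.06 to 9.41 in knockouts. Where its probes lie relative to the deleted exon is not known here, and these levels are no measure of recombination. In bulk tissue, fewer cells of a type and less RNA per cell cannot be told apart.

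The genes lie on 5 chromosomes of the mouse genome build GRCm38.p6. Gfap (chromosome 11, 102887336 to 102897200, minus strand), Stat3 (11, 100886806 to 100939594, minus) and Socs3 (11, 117966079 to 117970336, minus) share chromosome 11. Vim (2, 13574311 to 13582826, plus) and Cd44 (2, 102811141 to 102901669, minus) are on chromosome 2. Serpina3n is on chromosome 12 (104406646 to 104414334, plus), Nes on 3 (87971093 to 87980451, plus) and Timp1 on the X chromosome (20870166 to 20874737, plus), where it overlaps Syn1. All are protein coding.

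STAT3 binds DNA at palindromes of the form TTCCNGGAA, or more loosely TTCNNNGAA, where N is any base. Both strands were searched in the promoters that RefSeq annotation gives on GRCm38.p6, from 250 bases before to 50 bases after the start of transcription, and every match to the strict form is also a match to the loose one. The strict form was found in 1 of the 8 promoters, that of Gfap, against 1.15% of all 32851 promoters of this length. The loose form was found in 2 of 8, Gfap and Socs3, against 8.3% of all promoters. The 3 promoters printed are those of the 1 gene that passed the test in base against apex, Serpina3n (chr12:104406458-104406757, plus strand, no match), and of the 2 genes with a match, Gfap (chr11:102897151-102897450, minus strand) and Socs3 (chr11:117969317-117969616, minus strand). Capitals mark the match, which spans positions -2 to 7 in Gfap and -154 to -146 in Socs3, counted with no position 0 from the start of transcription that the window is built on. The Socs3 window lies wholly inside the gene interval given above, which on the minus strand begins at 117970336. Its positions therefore refer to a start within that interval. The Serpina3n window, with 250 bases before its start, likewise refers to a start inside that gene's interval, which begins at 104406646.
Serpina3n: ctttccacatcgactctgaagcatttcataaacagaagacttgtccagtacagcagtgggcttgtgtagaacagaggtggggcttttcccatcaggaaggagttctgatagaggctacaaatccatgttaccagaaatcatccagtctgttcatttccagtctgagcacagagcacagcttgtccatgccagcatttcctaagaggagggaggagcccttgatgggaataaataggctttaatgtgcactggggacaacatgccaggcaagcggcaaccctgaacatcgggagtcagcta
Gfap: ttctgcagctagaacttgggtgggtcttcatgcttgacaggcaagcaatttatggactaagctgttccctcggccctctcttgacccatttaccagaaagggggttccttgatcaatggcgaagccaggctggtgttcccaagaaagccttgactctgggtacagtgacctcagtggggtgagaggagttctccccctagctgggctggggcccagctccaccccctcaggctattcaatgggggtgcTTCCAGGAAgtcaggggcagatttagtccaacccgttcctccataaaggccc
Socs3: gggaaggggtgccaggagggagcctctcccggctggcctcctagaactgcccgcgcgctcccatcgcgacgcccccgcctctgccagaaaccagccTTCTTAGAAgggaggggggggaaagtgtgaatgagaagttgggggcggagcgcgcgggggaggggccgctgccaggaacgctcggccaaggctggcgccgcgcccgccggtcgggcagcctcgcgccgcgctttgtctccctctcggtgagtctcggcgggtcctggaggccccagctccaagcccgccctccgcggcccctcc
These letters describe the windows and show no binding. The other 5 promoters held neither form in this window.

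Serpina3n was the gene of the 8 whose groups lay farthest apart relative to their replicates. It encodes a secreted inhibitor of serine proteases and is among the most used markers of reactive astrocytes. Its log2 signal was 7.67 and 7.68 in control apex, 8.45 and 8.76 in knockout apex, 9.05 and 9.33 in control base and 9.68 and 10.05 in knockout base. No 2 groups overlapped. The order of the group means was therefore control apex (7.68 ± 0.01, SD, n = 2), knockout apex (8.60 ± 0.22), control base (9.19 ± 0.20) and knockout base (9.87 ± 0.27), and on the linear scale the signal ran from 204 in control apex replicate 1 to 1063 in knockout base replicate 2. Serpina3n was read from a single probe set.

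**Figure D1:**
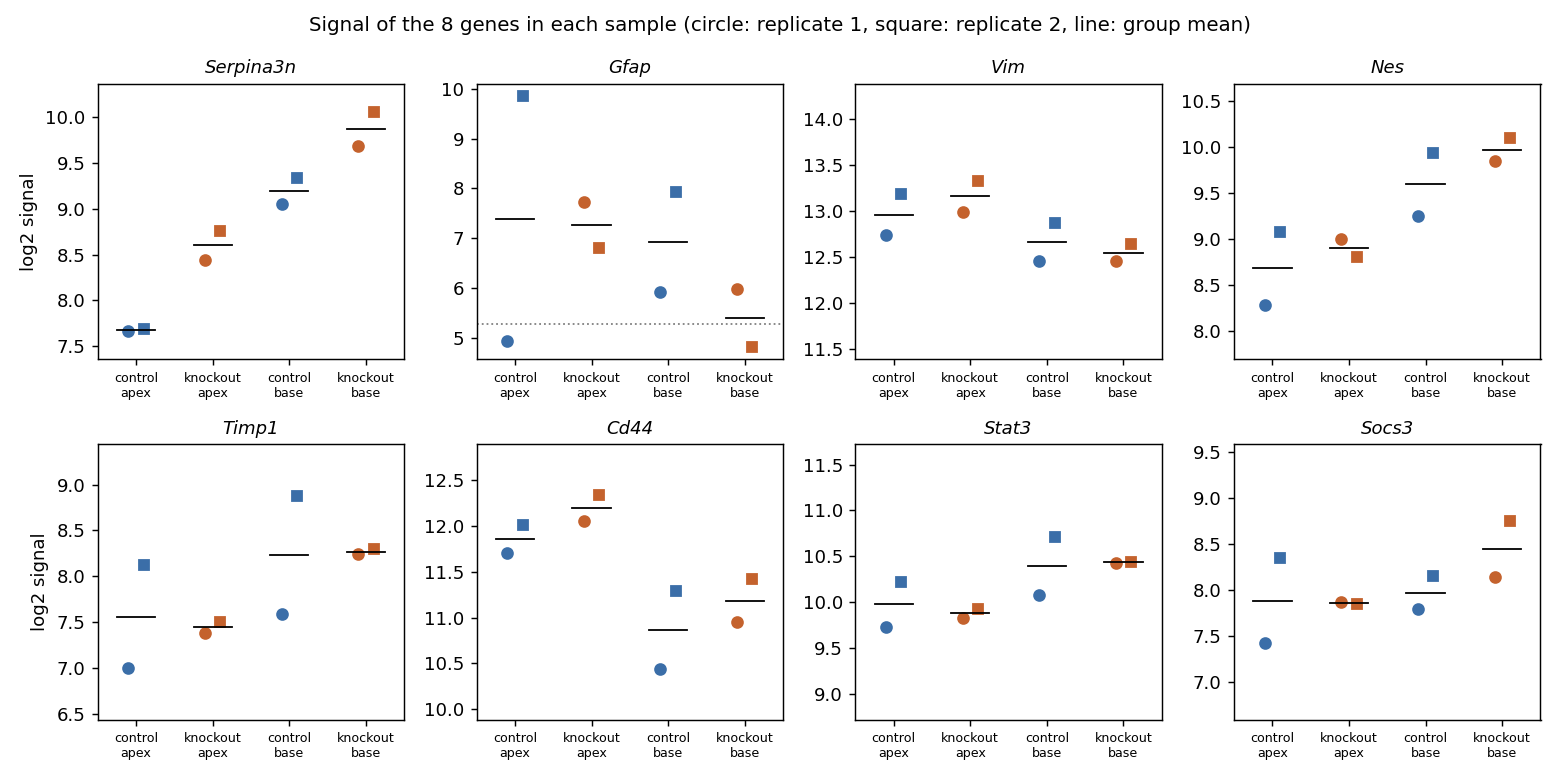
Log2 signal (vertical axis) of the 8 genes in each sample, with control in blue, knockout in orange, replicate 1 as a circle, replicate 2 as a square and the group mean as a line; each panel has its own axis range, and the dotted line in the Gfap panel is the brightness limit of 5.27. Serpina3n climbs from 7.67 in control apex to 10.05 in knockout base with no overlap between groups, while the 2 control apex samples of Gfap lie at 4.94 and 9.85.

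The first comparison asked whether the genes differ between the 2 ends of the cochlea, which differ in pitch and in the timing of hair cell development and loss. Across both genotypes, Serpina3n was 2.62-fold higher in the base than in the apex, a log2 difference of 1.39 ± 0.16 (SE; 95% interval 1.02 to 1.75; adjusted p = 0.0173, limma over 13221 genes). It was the only 1 of the 8 genes past the threshold of 0.05, where 1.19% of all genes tested were past it. The base exceeded the apex in each mouse, by 1.38 and 1.65 in the controls and by 1.23 and 1.30 in the knockouts. In the fit with the presumed mouse as a block, Serpina3n kept its call (adjusted p = 0.0184, limma). Leaving out any of the 6 samples other than the control basal pair, 1 at a time, gave differences of 1.30 to 1.48 and adjusted p of 0.0622 to 0.11 (limma), above the threshold, and in those fits at most 25 of all genes were called. Within controls alone base minus apex was 1.51 ± 0.22 and within knockouts alone 1.264 ± 0.22 (adjusted p = 0.226 and 0.104, limma).

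Cd44, the cell surface receptor for the matrix polymer hyaluronan and a marker of outer pillar cells in the organ of Corti, lay on the other side. Its log2 signal was 11.71 and 12.01 in control apex, 12.05 and 12.34 in knockout apex, 10.44 and 11.29 in control base and 10.95 and 11.42 in knockout base. Every basal sample was below every apical one. The mean difference of base minus apex was -1.001 ± 0.21 (2.00-fold lower, 95% interval -1.50 to -0.50; adjusted p = 0.0722, limma). With the presumed mouse as a block the same difference had a standard error of 0.13 and passed (adjusted p = 0.0275, or 0.0284 with the mouse as a random term, limma). The other 2 Cd44 probe sets above the brightness limit gave -0.75 and -0.75, and the last, under 5.27 in all 8 samples, is not read.

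Nestin (Nes), the intermediate filament of neural progenitors and of proliferating vessels, was higher in the base in all 4 mice. It measured 8.28 and 9.08 in control apex, 9.003 and 8.81 in knockout apex, 9.25 and 9.94 in control base and 9.84 and 10.10 in knockout base. The basal and apical samples did not overlap. The difference of 0.99 ± 0.23 (1.99-fold, adjusted p = 0.0905) did not pass in the fit without a block and passed with the presumed mouse as a block (SE 0.14, adjusted p = 0.034, or 0.0342 as a random term, limma). A second Nes probe set, at a mean log2 signal of 7.57, gave 0.06 for base minus apex, so the difference rests on the brighter probe set alone. The third lay under the brightness limit on average.

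The remaining genes did not pass in either fit. Vimentin (Vim), the intermediate filament of pillar and Deiters cells and of fibroblasts, measured 12.73 and 13.19 in control apex, 12.99 and 13.33 in knockout apex, 12.45 and 12.88 in control base and 12.46 and 12.64 in knockout base. Basal and apical samples overlapped, although each mouse had the lower value in its base, by 0.28 to 0.69. The mean difference was -0.45 ± 0.15 (adjusted p = 0.197, or 0.0551 with the mouse as a block, limma), and the other Vim probe sets gave -0.50 and -0.53.

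Timp1, a secreted inhibitor of matrix metalloproteinases, was at 7.001 and 8.12 in control apex, 7.38 and 7.50 in knockout apex, 7.59 and 8.87 in control base and 8.24 and 8.30 in knockout base. The control replicates lay 1.12 apart in the apex and 1.29 apart in the base, control mouse 2 being the higher in both, while the knockout replicates lay 0.12 and 0.06 apart. Timp1 has 1 probe set on the array. Base exceeded apex by 0.58 to 0.86 in the 4 mice (mean 0.75 ± 0.34, adjusted p = 0.322, or 0.0656 with the mouse as a block, limma).

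Stat3, the transcription factor itself, measured 9.73 and 10.23 in control apex, 9.83 and 9.93 in knockout apex, 10.08 and 10.71 in control base and 10.43 and 10.44 in knockout base. Base minus apex was 0.35 to 0.60 in the 4 mice and 0.48 ± 0.18 on average (adjusted p = 0.233, or 0.0853 with the mouse as a block, limma). The other Stat3 probe sets did not share this pattern: they gave -0.85, -0.29 and 0.09. Over the 8 samples the first of these ran against the probe set read for the gene (r = -0.76), so no direction is drawn for Stat3.

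Socs3, the feedback inhibitor that STAT3 induces, was at 7.42 and 8.35 in control apex, 7.87 and 7.85 in knockout apex, 7.79 and 8.15 in control base and 8.14 and 8.75 in knockout base. The groups overlapped, control mouse 2 had a lower base than apex, and the mean difference was 0.33 ± 0.25 (adjusted p = 0.532, limma). The probe set read for Socs3 belongs to a class whose probes can also bind other transcripts, and the other 2 gave -1.10 and 0.44.

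Counted over the set, 6 of the 8 genes had the same sign of base minus apex in all 4 presumed mice on the probe set read, 4 higher (Serpina3n, Nes, Timp1, Stat3) and 2 lower (Vim, Cd44), where 33% of all genes tested had the same sign in all. Without Stat3, whose probe sets disagree, these were 5 of 7, 3 higher and 2 lower. Nes stays in this count on its brighter probe set alone. Its second gave 0.06 on average and, in control mouse 2, was lower in the base (7.38) than in the apex (7.54). The basal and apical samples did not overlap for 3 of the 8, Serpina3n and Nes higher and Cd44 lower, where this held for 12.4% of all genes. With the presumed mouse as a block the same 3 passed the threshold, where 1.93% of all genes passed with the mouse as a fixed term and 3.99% with it as a random term. Without control base replicate 1, 5 of the 8 passed, the 3 named and Timp1 (1.07 ± 0.28) and the probe set read for Stat3 (0.64 ± 0.15), but 11.5% of all genes passed then. Without control base replicate 2, Serpina3n and Cd44 passed, and 2.76% of all genes.

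**Figure D2:**
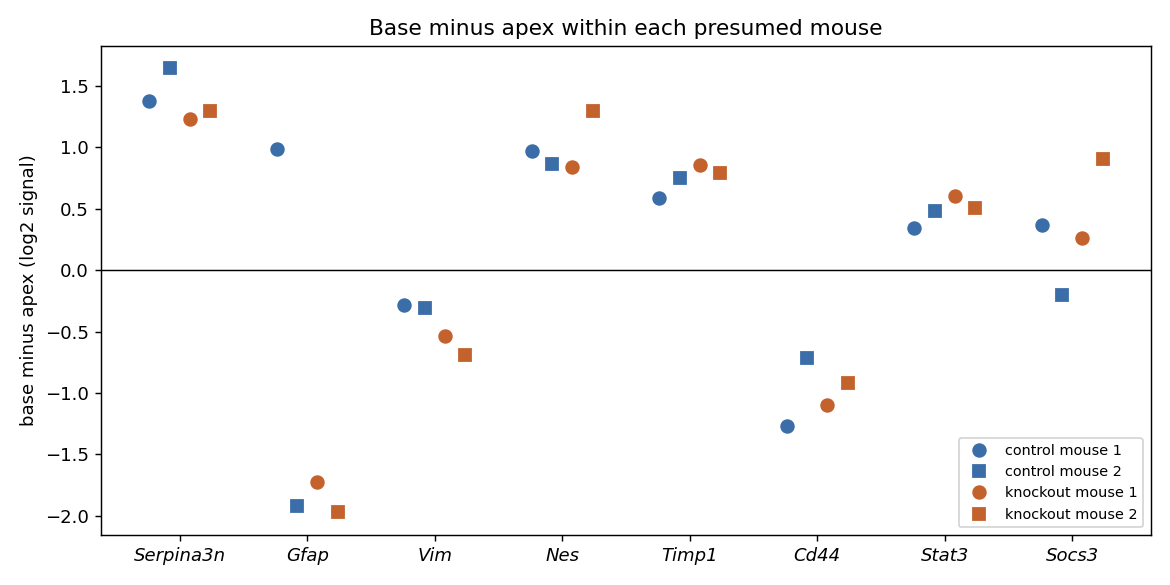
Base minus apex in log2 signal (vertical axis) for each gene within each of the 4 presumed mice, with controls in blue, knockouts in orange, mouse 1 as a circle and mouse 2 as a square. Serpina3n, Nes, Timp1 and the probe set read for Stat3 are above 0 in all 4 mice, Vim and Cd44 are below 0 in all, and Gfap and Socs3 have 1 mouse on the other side.

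**Figure D3:**
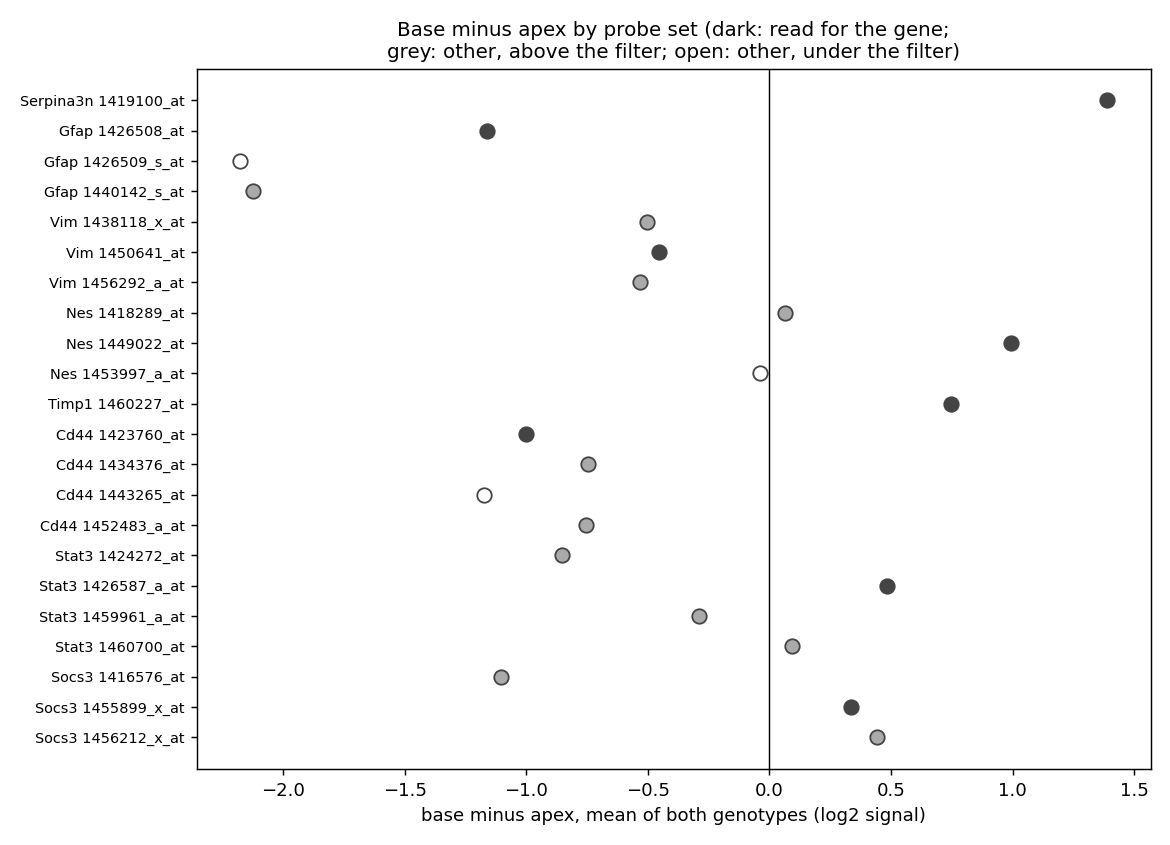
Base minus apex (log2 signal, horizontal axis, mean of both genotypes) for each of the 22 probe sets of the 8 genes; a dark point is the probe set read for the gene, a grey point another above the brightness limit and an open point another below it. The Cd44, Vim and Gfap probe sets all lie below 0, while those of Stat3 and Socs3 fall on both sides. Those of Nes lie at 0.99, 0.06 and, for the one below the brightness limit, -0.04.

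Base and apex also differed in their cell type markers. Summed linear signals of the endothelial markers were 5006 to 6255 in the base and 3207 to 3459 in the apex, and 2 of the 5 tested, Eng (1.05 ± 0.16, adjusted p = 0.0364) and Tek (0.72 ± 0.13, adjusted p = 0.0496, limma), were higher in the base. Bone markers summed to 21913 to 31906 in the base and 13616 to 18873 in the apex, with 1 of 6 higher (Dmp1). Fibrocyte and mesenchyme markers overlapped (122222 to 164969 in the base, 109911 to 134984 in the apex), with 1 of 11 higher in the base, Col3a1 (0.75 ± 0.10, adjusted p = 0.0292, limma). Stria vascularis markers summed to 51248 to 57256 in 3 basal samples, 21169 in control base replicate 1 and 22398 to 27963 in the apex, with 0 of 10 past the threshold, 4 higher at an unadjusted p under 0.05 and a median difference of 1.505. Hair cell markers ran the other way, 4390 to 5638 in the base against 6976 to 9011 in the apex, with 3 of 10 lower, Gfi1, Strc and Calb1. Among 13 supporting cell markers Jag1, Sox2 and Otog were lower in the base, although the summed signals overlapped (53740 to 62395 against 57255 to 66923). Macrophage and leukocyte markers overlapped too (7321 to 11283 against 7006 to 10747), with 0 of 10 past the threshold and 0 at an unadjusted p under 0.05, where 17.2% of all genes tested were under it. The part of these cell types in the differences of the 8 genes was not tested.

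As a description over the 8 samples, which come from 4 presumed mice, Nes ran with the bone markers (r = 0.97) and the endothelial markers (r = 0.84), and Cd44 with the hair cell markers (r = 0.89). Serpina3n ran with the bone (r = 0.85) and the fibrocyte and mesenchyme markers (r = 0.84). These samples share the step from apex to base, and such values carry no test.

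The second comparison set the genotypes against each other in the apex. No gene passed: 0% of the 13221 were past the threshold by limma's adjusted p, the smallest being 0.134, and 2.19% (290 genes) had an unadjusted p under 0.05. Serpina3n was 1.90-fold higher in the 2 knockout than in the 2 control samples, a log2 difference of 0.92 ± 0.22 (95% interval for this gene alone 0.41 to 1.44), which ranked 16th of all genes by p and had an adjusted p of 1. Both knockout samples lay above both controls. Cd44 also separated the genotypes in the apex, with a difference of 0.34 ± 0.30 that was of the size of its error. Separation of this kind held for 2 of the 8 genes, and for 31.2% of all genes tested.

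In the other 6 genes the apical groups overlapped. Vim gave 0.20 ± 0.22, Nes 0.22 ± 0.33, Timp1 -0.12 ± 0.48, Stat3 -0.10 ± 0.25 and Socs3 -0.02 ± 0.36 for knockout minus control (adjusted p = 1 for each, limma). The 95% intervals reached from -1.25 to 1.01 for Timp1 and from -0.86 to 0.81 for Socs3, and from -0.30 to 0.70 for Vim. Differences of these sizes were not detectable with 2 samples a group. Other probe sets of these genes did not always share the sign. Both other Vim probe sets were lower in both knockout samples, by 0.21 and 0.38, against 0.20 higher on average in the one read. Of the other Stat3 probe sets 1 was lower in both knockout samples (-0.45), 1 higher in both (0.43) and 1 overlapped (0.32). The other Socs3 probe sets gave -1.20, with overlap, and -0.33, without. Of the 11 other probe sets above the limit on average, 2 were higher and 4 lower in both knockout samples in the apex. In the base 1 was higher and 1 lower. On the probe sets read, 31.2% of all genes tested separated the genotypes in the apex and 28.7% in the base, in either direction.

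In the base 0% of genes were past the threshold (limma), with 3.12% (413 genes) at an unadjusted p under 0.05. Serpina3n was 1.60-fold higher in the knockout (0.67 ± 0.22, 95% interval 0.16 to 1.19, adjusted p = 1, limma), again with both knockout samples above both controls. On the probe sets read it was the only 1 of the 8 genes to separate the basal genotypes, where 28.7% of all genes did so. Socs3 gave 0.48 ± 0.36, Nes 0.37 ± 0.33, Cd44 0.32 ± 0.30, Timp1 0.04 ± 0.48, Stat3 0.04 ± 0.25 and Vim -0.12 ± 0.22. A second Nes probe set, at a lower signal, was higher in both knockout samples than in both controls in each region, by 0.40 in the apex and 0.42 in the base. The Stat3 probe set that was lower in the knockout apex was lower in the base too (-0.62, without overlap), while the other 2 gave 0.35 and 0.07. In the base the genotypes overlapped in the other probe sets of Vim (-0.38 and -0.31), Socs3 (0.19 and -0.15) and Cd44 (0.07 and -0.32), which had given 0.13 and -0.09 for Cd44 in the apex.

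**Figure D4:**
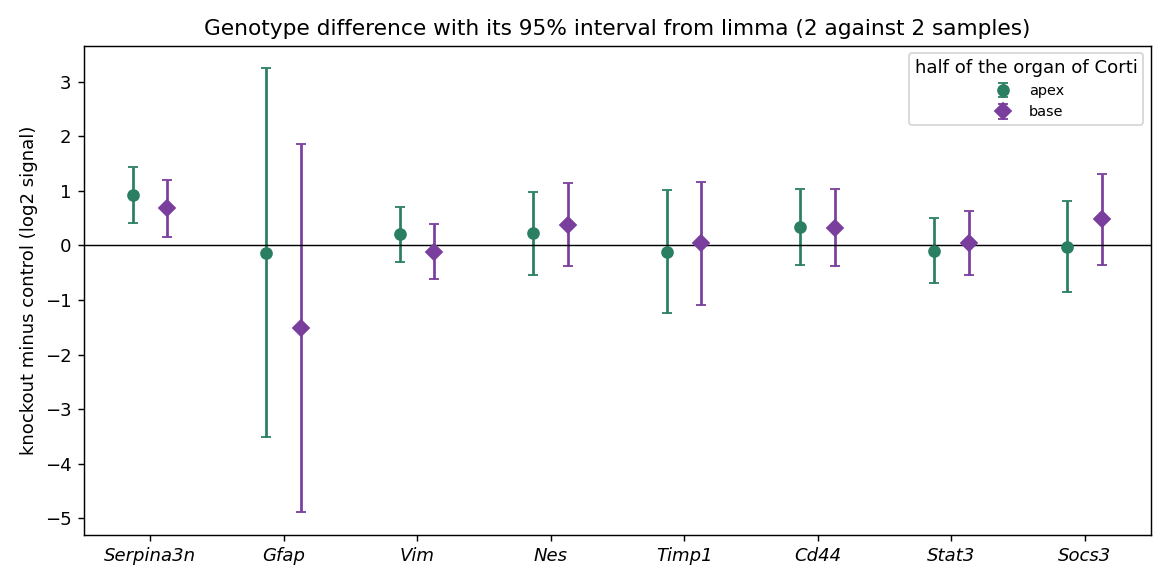
Knockout minus control in log2 signal (vertical axis) for the 8 genes in the apex (circles) and in the base (diamonds), 2 against 2 samples each, with the 95% interval of limma for each gene alone. Serpina3n lies at 0.92 and 0.67, and the Gfap intervals reach from -3.51 to 3.24 in the apex and from -4.89 to 1.86 in the base.

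Taking 1 value per mouse, the mean of its apex and base, gave the same order. Serpina3n was 8.36 and 8.51 in the control mice and 9.06 and 9.41 in the knockout mice, a difference of 0.80 ± 0.19 (1.74-fold, unadjusted p = 0.00814, adjusted p = 0.999, limma on 2 against 2 mice). No other member separated the mice by genotype on the probe set read, where 30.3% of all genes did. Mouse means were taken from these probe sets only, not from the others of a gene. Again 0% of genes passed the threshold (2.41%, or 319 genes, at an unadjusted p under 0.05). On the probe sets read, Serpina3n was the 1 gene of 8 whose genotypes stayed apart in the same direction in the apex and in the base, where 7.86% of all genes did so. The 2 regions come from the same presumed mice and are not independent of each other.

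Whether the genotype difference itself differed between base and apex was tested as an interaction, and 0% of genes passed (1.13%, or 149 genes, at an unadjusted p under 0.05). For Serpina3n it was -0.25 ± 0.31 (base minus apex, 95% interval -0.98 to 0.48), for Socs3 0.50 ± 0.50, for Vim -0.32 ± 0.30 and for Cd44 -0.02 ± 0.43. Gfap gave -1.38 ± 2.04. All had an adjusted p of 1 (limma).

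Cell type markers were set beside the genotype comparison, where 0 of any list passed after adjustment. The summed linear signal of the neutrophil granule genes was 8236 and 8702 in the knockout base, 2595 and 4493 in the control base, 4952 and 4482 in the knockout apex and 3199 and 5089 in the control apex. Of the 9 on the list, 8 had an unadjusted p under 0.05 in the base, all higher in the knockout, with a median difference of 1.28 against -0.0015 for all genes tested. In the apex 8 of the 9 were positive and 2 had an unadjusted p under 0.05, Elane (2.11 ± 0.68) and Prtn3 (0.96 ± 0.36), with a median of 0.22, and over the mouse means 7 of 9 did, with a median of 0.71. Lcn2, on that list and on the reactive astrocyte list alike, was at 8.28 and 9.23 in the knockout base and at 6.83 and 8.26 in the control base (1.21 ± 0.57, adjusted p = 1).

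Of the 10 hair cell markers, 4 were lower in the knockout base at an unadjusted p under 0.05, Cabp2 (-1.49 ± 0.30), Otof (-1.35 ± 0.32), Strc (-1.82 ± 0.52) and Tmc1 (-1.17 ± 0.39), and 1 was higher, Calb1 (1.37 ± 0.57), with a list median of -0.66, while 0 of 10 were under it in the apex. Stria vascularis markers were positive in 9 of 10 in the base, with a median of 1.62 and 1 at an unadjusted p under 0.05, Pmel (1.48 ± 0.52), their sum being 21169 in control base replicate 1 and 56470 in replicate 2. Macrophage and leukocyte markers had 0 of 10 at an unadjusted p under 0.05 in either region. Fibrocyte and mesenchyme markers summed to 127966 to 134984 in knockout apex and 109911 to 114911 in control apex. In the base the sums were 143282 to 164969 and 122222 to 143231. Of these 11 markers, 11 were positive in the apex (median 0.22) and 10 in the base (0.25), with 0 at an unadjusted p under 0.05. Bone markers summed to 30412 to 31906 in knockout base and 21913 to 27111 in control base, and overlapped in the apex. The part of these cells in the Serpina3n values was not tested.

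Gfap, the intermediate filament that defines reactive astrocytes and is also made by some cochlear supporting cells and nerve glia, was set apart from the other 7 genes by its spread. Its log2 signal was 4.94 and 9.85 in control apex, 7.72 and 6.81 in knockout apex, 5.93 and 7.93 in control base and 5.99 and 4.83 in knockout base. The 2 control apex samples differed by 4.91, or from 30.8 to 923 on the linear scale, a gap wider than that of 99.92% of all genes tested, for which the median was 0.26. Control mouse 2 was the highest of the 4 samples in the apex and again in the base, and 2 of the 8 values lay under the brightness limit.

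The other Gfap probe sets gave the same order of control samples. One measured 0.60 and 10.25 in control apex and 4.76 and 7.60 in control base, and the other 1.25 and 9.11, and 2.17 and 7.02. Over the 8 samples they correlated with the probe set read for the gene at r = 0.92 and 0.95. The first of them was above the brightness limit on average. Its knockout minus control was 2.89 for apical samples, opposite in sign to the probe set read, and -2.88 for basal ones. Its genotypes overlapped in each region, and its base minus apex was -2.12. Replicates spread widely in the probe set read too, and the differences that follow are its own. With this spread neither comparison could resolve a change: for the genotype the apical difference was -0.13 ± 1.45 and the basal one -1.51 ± 1.45 (adjusted p = 1 for each), and base minus apex was -1.16 ± 1.02 (adjusted p = 0.598, limma). Base was below apex in 3 of the 4 mice, by 1.73 to 1.97, and above it by 0.99 in control mouse 1, the female.

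**Figure D5:**
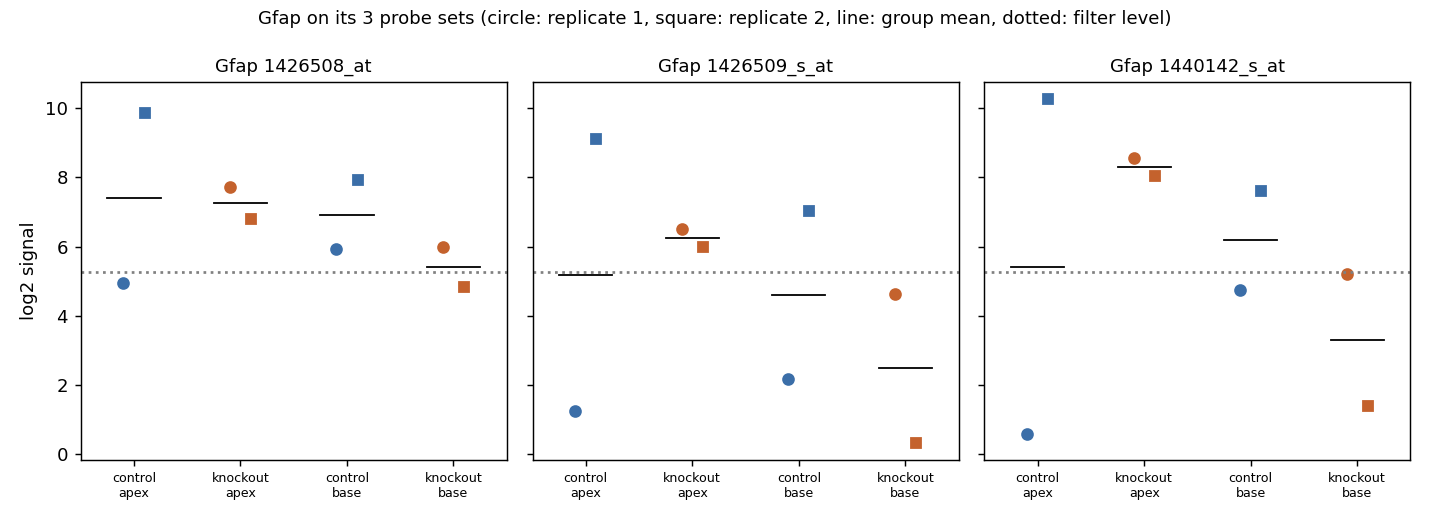
Log2 signal (vertical axis, the same in each panel) of the 3 Gfap probe sets in each sample, with control in blue, knockout in orange, replicate 1 as a circle, replicate 2 as a square, the group mean as a line and the brightness limit dotted. In all 3 panels control replicate 2 is the highest sample of the apex and of the base, and control apex replicate 1 is the lowest of the apex.

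Markers of central astrocytes, the main source of Gfap in the brain, were followed beside it. All 8 of the list were measured and above the brightness limit. Their summed signal was 28160 (apex) and 28357 (base) for control mouse 2, against 18247 and 19574 in control mouse 1 and 19724 to 26195 in the knockouts. In the base Atp1b2, also on the stria vascularis list, was at 11.31 in control mouse 1 and 13.23 in control mouse 2. There Gja1 (11.87 and 11.77) and Aldoc (12.25 and 11.985) were lower in control mouse 2, and the other markers were higher. Aqp4, the water channel of astrocyte endfeet and also of cochlear supporting cells, was at 11.88 and 10.51 in control mouse 2 and at 9.87 and 8.44 in control mouse 1. Schwann cell and myelin markers did not follow this, with 65761 and 62184 in control mouse 2 and 72956 and 73048 in control mouse 1. The part of astrocytes in the Gfap values was not tested.

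The wider reactive astrocyte list had 25 tested genes, 5 of them members. In base against apex 7 of the 25 were higher and 4 lower at an unadjusted p under 0.05, where 17.2% of all genes reached it in either direction. After adjustment 2 were higher, Serpina3n and the copper-carrying ferroxidase ceruloplasmin (Cp, 0.57 ± 0.08, adjusted p = 0.0336), and 1 was lower, the glycosyltransferase B3gnt5 (-0.94 ± 0.16, adjusted p = 0.0496, limma). The small heat shock protein Hspb1 (0.91 ± 0.17) and the sphingosine phosphate receptor S1pr3 (0.60 ± 0.12) did not pass (adjusted p = 0.0584 and 0.0682). The median over the list was 0.25, against -0.02 for all genes tested. For the genotype 0 of the 25 passed in either region (limma; 2 at an unadjusted p under 0.05 in each), and the medians were -0.03 in the apex and -0.06 in the base.

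Within that list the metalloreductase Steap4 had the smallest p for the genotype in the apex where knockout minus control was -1.02 ± 0.20 (unadjusted p = 0.00131, adjusted p = 1), against 0.58 ± 0.20 in the base. It measured 9.62 and 9.38 in control apex, 8.49 and 8.47 in knockout apex, 9.13 and 9.35 in control base and 9.64 and 10.01 in knockout base. The interaction was 1.60 ± 0.29, with the smallest unadjusted p of all genes for that contrast (0.000693) and an adjusted p of 1 (limma). Its sign in the apex was opposite to that of Serpina3n.

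Of 30 tested genes of interleukin-6 family and STAT3 signalling, 1 was higher in the base, the lipopolysaccharide-binding protein Lbp, an acute phase protein (1.48 ± 0.25, adjusted p = 0.0458, limma), and the list median was 0.08. Among its ligands Il6, Il11 and Lif lay under the brightness limit, while Osm gave -0.23 ± 0.30 and Clcf1 -0.28 ± 0.31. The shared receptor chain Il6st was at -0.43 ± 0.13 (adjusted p = 0.168) and the ligand-specific Il6ra at 0.44 ± 0.21 (adjusted p = 0.339). Of the transcription factors, Stat5b gave 0.57 ± 0.11 (adjusted p = 0.0651). For the genotype 0 of 30 passed (limma), with 2 higher and 1 lower at an unadjusted p under 0.05 in the apex and 0 in the base. Of all genes tested, 2.19% reached that level in the apex and 3.12% in the base. The 1 lower was Ptpn6 (-1.19 ± 0.47, against 0.64 ± 0.47 in the base). The 2 higher were Bcl3 and Pim1 (0.46 ± 0.19, against 0.04 ± 0.19 in the base). The target gene Bcl3 gave 0.88 ± 0.37 in the apex and, with the same error, 0.75 in the base (adjusted p = 1 each), from 5.74 and 6.40 in control apex to 7.05 and 6.85 in knockout apex.

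Structural partners did not pass either. Of 19 intermediate filament and linker genes, 0 passed in base against apex, with 3 higher and 2 lower at an unadjusted p under 0.05, a level that 17.2% of all genes tested reached (Krt19, a keratin, -1.20 ± 0.24, adjusted p = 0.0651). Of 18 matrix proteases and inhibitors 0 passed, with 3 lower and 0 higher at an unadjusted p under 0.05. Of 19 genes for hyaluronan handling, CD44 partners and scar matrix 0 passed, with 2 higher and 7 lower at an unadjusted p under 0.05, Cd44 among the lower, along with the hyaluronan-modifying protein Tnfaip6 (-1.15 ± 0.22, adjusted p = 0.0617) and fibronectin (Fn1, -1.50 ± 0.32, adjusted p = 0.0736, limma). List medians were -0.26, 0.11 and -0.32. For the genotype the 3 lists held 0 genes past the threshold in either region (limma), and at an unadjusted p under 0.05 they held 0 in the apex and 2 in the base, Synm lower and Mmp9 higher. The acute phase and inflammation list had 10 tested genes and 0 past the threshold in these comparisons, with 1 at an unadjusted p under 0.05 in base against apex, 0 for the genotype in the apex and 1 in the base.

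Among themselves the 8 genes fell into like and unlike patterns over the 8 samples, which are described here with no test. Stat3 and Timp1 were closest (r = 0.98), each lowest in control mouse 1 and highest in control mouse 2 within each region. Nes ran with Stat3 (r = 0.91), Timp1 (r = 0.88) and Serpina3n (r = 0.87), and Vim with Cd44 (r = 0.90). Serpina3n and Gfap, both markers of reactive astrocytes, did not run together (r = -0.43).

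Of all genes tested, those with the pattern most like Serpina3n were Notch4, a Notch receptor of endothelium, and Gas2l1, a cytoskeletal linker (r = 0.97 for both, n = 8 samples). For Gfap they were Exosc9 and Sri (0.98 and 0.96), for Vim Celsr1 and Pop4 (0.98 for both), and for Nes the basement membrane collagen Col4a3 and Shisa5 (0.98 for both). Timp1 was closest to Surf4 and Pdlim2 (0.99 for both), Cd44 to Draxin and Sox6 (0.99 and 0.98), Stat3 to Timp1 and Creb3 (0.98 for both) and Socs3 to the blood cell integrin activator Fermt3 and Sp1 (0.98 and 0.96).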

How the data were processed

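The deposited values are MAS5 signals, 1 linear intensity for each probe set; in these files the mean of each array, trimmed by 2% at each end, is 500. Per the submitters' processing notes MAS5 and affy 1.26 were used, with no role or order given. Per the labels' protocols, total RNA came from a mirVana kit and was amplified and labelled in 2 cycles. Median signals per array ran from 67.3 to 100.4, and precision is limited by there being 8 arrays.

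Signals were taken to log2 without a pseudocount or another normalization. Of 45101 probe sets, 64 were array controls, 34945 had 1 gene in the supplied platform annotation, 932 several and 9160 none listed. A gene was read from its probe set of highest mean among those with 1 gene, and probe sets under the 40th percentile (5.27, a signal of 38.7) were not tested. The 4 group means were fitted to the 8 samples with limma 3.58.1 (R 4.3.3), using moderated variances with an intensity trend, two-sided tests, Benjamini-Hochberg adjustment over 13221 genes in each contrast and a threshold of 0.05. The genotype over both regions was fitted on 1 mean per presumed mouse. The procedure was tested on simulated data.

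The labels tie a replicate to 1 mouse, so apex and base of 1 genotype and number were paired as 1 presumed mouse. Across genes, deviations from the group means correlated at r = 0.339 between paired control samples and 0.0683 between paired knockout samples. Across genotypes the number is only shared. P-values set a difference against the spread of replicates within groups, pooled over the groups and moderated across genes. For the mouse means that spread is between the 2 mice of a genotype. Without a block, base against apex and the interaction treat apex and base of 1 presumed mouse as independent.

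The named genes are the 8 members with all their probe sets, for each the 2 genes of highest correlation over the samples, and up to 4 genes of smallest p per list, with further list members named for their role or their unadjusted p, chosen after their values were seen. Members and lists were chosen with earlier results of these data known. Alternatives were another filter or none, a pseudocount of 16, 2 other scalings of the arrays (quantiles, or the 75th percentile), averaged probe sets, no intensity trend, low values raised to the filter, blocks, the compared groups alone and leaving out each sample. Promoters and gene positions are from RefSeq on GRCm38.p6. List genes that no such probe set represents were not analysed here.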

Additional observations from a re-analysis of the deposited data

How the results depend on the processing

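For Serpina3n, base minus apex kept its direction in 18 of 18 alternatives and its call in 12, the exceptions being the 6 fits that left out 1 sample other than a control basal one. Its genotype difference was positive in every alternative run, in the apex (0.77 to 1.08), the base (0.49 to 0.86) and the mouse means (0.63 to 0.97), and never passed. The count of genes called in base against apex was 157, 98 with all probe sets of a gene averaged, 70 without an intensity trend, and 0 to 1518 on leaving out 1 sample (25 or fewer without any of the 6 samples other than the control basal ones, 365 without control base replicate 2, 1518 without control base replicate 1). With the replicate block, the presumed mouse, it was 255 as a fixed term and 527 as a random term, which added Cd44 and Nes to the calls and changed no other member's call. With no intensity trend 1 gene was called for the genotype in each region. Leaving out 1 sample called 0 to 37 genes in the base and 0 to 9 in the mouse means, none a member.

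The reversals concern members that never passed in that contrast under the setting named. Quantile normalization turned knockout minus control in the apex for Gfap (0.059), Timp1 (0.0072) and Socs3 (0.10), in the mouse means for Vim (-0.019) and Timp1 (0.036), and the interaction of Cd44 (0.028). Centring on the 75th percentile turned Socs3 in the apex (0.018) and, in the mouse means, Timp1 (0.0007) and Stat3 (0.0106). Averaging the probe sets turned the apex for Gfap (1.27), Vim (-0.13), Nes (-0.0745) and Stat3 (0.049), the base for Cd44 (-0.086) and Stat3 (-0.0385), the mouse means for Vim (-0.20), Stat3 (0.0053) and Socs3 (-0.17), base minus apex for Stat3 (-0.14) and Socs3 (-0.11), and the interaction of Stat3 (-0.088).

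Leaving out each sample in turn gave these ranges where a sign changed. In the apex they were -2.59 to 2.32 for Gfap, -0.18 to 0.62 for Nes, -0.49 to 0.44 for Socs3, -0.35 to 0.15 for Stat3, -0.68 to 0.44 for Timp1 and -0.0255 to 0.43 for Vim. In the base they were -0.11 to 0.75 for Cd44, -0.27 to 0.36 for Stat3, -0.61 to 0.68 for Timp1 and -0.33 to 0.10 for Vim. In the mouse means they were -2.55 to 0.90 for Gfap, -0.072 to 0.67 for Nes, -0.10 to 0.55 for Socs3, -0.31 to 0.25 for Stat3, -0.64 to 0.56 for Timp1 and -0.18 to 0.26 for Vim. For the interaction they were -0.44 to 0.41 for Cd44, -3.84 to 1.07 for Gfap, -0.25 to 0.55 for Nes, -0.17 to 0.46 for Stat3 and -0.49 to 0.80 for Timp1, and for base minus apex -2.39 to 0.067 for Gfap. The causes were not tested. With 2 samples a group, signals near the brightness limit, such as those of Gfap, limit what these arrays resolve.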
